A study of Mus musculus with 15 samples.

Results

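The genes described here are 9 genes of renal water handling and urine concentration, namely Aqp1, Aqp2, Aqp3, Aqp4, Aqp6, Aqp7, Aqp11, Avpr2 and Slc14a2. They were found among the 54532 genes of the expression table by their Ensembl identifiers, using the symbols of GENCODE M21 (mouse build GRCm38), and all 9 had a row. RNA of 15 kidneys was sequenced, 1 kidney from each of 15 male C57BL/6 mice that were 8 weeks old on arrival, with 5 mice in each of 3 groups. The control group (C) ate normal chow. The CKD model group (M) received chow with 0.25% adenine for 4 weeks, a diet that injures the tubules through crystals of an adenine product. The AA group received the same adenine chow for those weeks and a daily gavage of 30 mg/kg asiatic acid, a plant triterpenoid, until the end of week 8. All groups ate standard chow from week 5 to week 8, and per the study's methods the C and M mice were gavaged with the DMSO and saline vehicle. The adenine chow had therefore been stopped for several weeks when the kidneys were taken, and the samples are bulk kidney RNA of a model in males only. Which part of the kidney was taken is not given in the sources used here.

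Water leaves the tubule through aquaporins. Aqp1 is the constitutive water channel of the proximal tubule and the thin descending limb. Aqp2 is the channel of the collecting duct principal cell that vasopressin brings to the apical membrane, through its receptor Avpr2, cAMP and protein kinase A. Aqp3 and Aqp4 let the same water out across the basolateral membrane. Aqp6 sits in vesicles of intercalated cells, Aqp7 carries water and glycerol in the late proximal tubule and in fat cells, and Aqp11 lies in the endoplasmic reticulum of the proximal tubule. Slc14a2 encodes the urea transporters of the inner medullary collecting duct and the thin descending limb, which feed urea to the medullary gradient that draws the water out.

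The promoters of Aqp2, Aqp3 and Aqp1 are printed because the first of them carries the main difference between the groups and the others encode channels that act with it or upstream of it. RefSeq promoters on GRCm38.p6 were available for 7 of the 9 genes, and the 250 bases before the start are shown 5′ to 3′ on the gene's strand. Capitals mark letters found by a search of both strands for the TATA box (TATAAA), the cAMP response element (TGACGTCA) and the core inside it (TGACG), a word of GATA factors (AGATAA), a word of Ets factors such as Elf3 and Elf5 (AGGAAG) and a core of Nfat5 sites (TGGAAA). Aqp2 is at chr15:99578806-99579055 on the plus strand, Aqp3 at chr4:41098184-41098433 on the minus strand and Aqp1 at chr6:55336049-55336298 on the plus strand.
Aqp2: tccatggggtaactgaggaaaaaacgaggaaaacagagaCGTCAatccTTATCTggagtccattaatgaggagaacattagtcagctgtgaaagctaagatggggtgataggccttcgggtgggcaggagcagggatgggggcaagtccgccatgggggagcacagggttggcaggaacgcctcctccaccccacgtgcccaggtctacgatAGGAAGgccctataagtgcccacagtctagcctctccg
Aqp3: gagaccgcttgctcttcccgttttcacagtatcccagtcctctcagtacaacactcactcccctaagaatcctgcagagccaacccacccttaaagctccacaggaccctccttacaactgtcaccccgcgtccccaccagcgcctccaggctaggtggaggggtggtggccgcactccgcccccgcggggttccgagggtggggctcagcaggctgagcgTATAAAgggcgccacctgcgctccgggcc
Aqp1: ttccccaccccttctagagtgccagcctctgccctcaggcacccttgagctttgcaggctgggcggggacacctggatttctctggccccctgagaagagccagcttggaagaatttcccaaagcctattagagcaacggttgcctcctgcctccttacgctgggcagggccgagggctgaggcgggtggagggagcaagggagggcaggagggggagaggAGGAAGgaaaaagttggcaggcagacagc
The Aqp2 sequence holds CGTCA, the reverse complement of TGACG, from position -211 to -207, TTATCT, the reverse complement of AGATAA, from -202 to -197, and AGGAAG from -38 to -33, counted back from -1 at the base before the start, and AGGAAG occurs again in the 50 bases after it. The Aqp3 sequence holds TATAAA from -29 to -24 and the Aqp1 sequence AGGAAG from -29 to -24. Such short words are common. Among 32817 mouse promoters of 300 bases in the same table, 20.8% hold TGACG on either strand, 11.2% AGATAA, 35.4% AGGAAG, 21.4% TGGAAA, 13.6% TATAAA and 1.79% TGACGTCA. The matches describe letters and not bound sites.

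The authors deposited FPKM, that is fragments on a gene scaled to its length and to a divisor for its library, so levels of genes can be compared within a library. The divisor did not follow the fragments counted on genes. It was 1.41 to 2.30 times their number in C libraries, 0.647 to 1.57 times in M libraries and 0.518 to 1.48 times in AA libraries, so FPKM and fold changes between groups depend on this scaling. Against the fragments outside mitochondrial genes the divisor varied less, at 3.19 to 4.89 times in C, 4.37 to 5.03 times in M and 4.05 to 4.82 times in AA. Scaling each library to the same total, mitochondrial genes included (TPM), moved the genes called in M vs. C from 291 to 1609. With a total that left mitochondrial genes out, 240 were called. All FPKM below are theirs, and fold changes are on the scale of log2(FPKM + 1), which understates the change of low genes. Fragments were recovered from the steps between FPKM values, up to a possible factor of 2, and ranged from 13647036 to 28884450 per library. The mitochondrial share of them was 53.0 to 62.5% in C libraries, 64.0 to 86.8% in M libraries and 69.2 to 87.2% in AA libraries. M mice 1 to 3 had 11551, 10068 and 12222 genes above 0, against 18695 to 25460 in the other 12 libraries, so results with the M group are also given for M mice 4 and 5 alone where that changes a call. A gene entered the limma test when 5 or more of the 10 libraries of a comparison had FPKM above 0. It was called when its adjusted p was 0.05 or less and its log2 fold change was 1 or more, up or down, which are the study's thresholds. Avpr2 had FPKM above 0 in too few libraries for this test, so 8 of the 9 genes were tested in each comparison.

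In the CKD model kidneys the vasopressin-regulated water channel Aqp2 (ENSMUSG00000023013, chromosome 15, 99579055 to 99584547) fell to a small part of its control level, and it fell as well in AA vs. C. Aqp2 FPKM was 255, 20.6, 437, 21.5 and 29.6 in C mice 1 to 5. It was 2.92, 3.37, 1.76, 7.45 and 1.38 in M mice 1 to 5. It was 1.76, 1.09, 6.39, 6.61 and 5.51 in AA mice 1 to 5. Every C library was above every M and every AA library, while the M and AA libraries overlapped throughout. On the log2 scale Aqp2 fell by 4.15 in M vs. C (standard error 0.81, limma adjusted p = 0.0293). It fell by 3.92 in AA vs. C (standard error 0.83, limma adjusted p = 0.00428). The AA vs. M value was 0.23 (standard error 0.46, limma adjusted p = 0.771) with a 95% interval from −0.75 to 1.21, so these libraries did not resolve a difference within that range. The C group spread widely, because C mice 1 and 3 stood far above C mice 2, 4 and 5. Without C mice 1 and 3, a choice made after the values were seen, the Aqp2 value was −2.64 in M vs. C (limma adjusted p = 0.0162) and −2.41 against C in the AA group (limma adjusted p = 0.00345). With M mice 4 and 5 alone in the M group it was −3.96 in M vs. C (limma adjusted p = 0.242), in a fit that called 0 genes in all and gave 2489 an unadjusted p under 0.05. Leaving out C mouse 5, M mouse 1, M mouse 2 or M mouse 3 also took the adjusted p above 0.05, to 0.0679, 0.0710, 0.0723 and 0.0928. Behind these values stood 1033 to 41190 Aqp2 fragments per C library, 34 to 310 per M library and 14 to 193 per AA library. In bulk RNA, fewer principal cells and less Aqp2 RNA per cell cannot be told apart.

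Of the 8 tested genes 1 was called in M vs. C, Aqp2, where 1.38% of all 21153 tested genes were called, 1.11% as lower in the M group. Groups that did not overlap, with M below C, were seen in 3.67% of those genes, and Aqp2 was 1 of them. AA vs. C also gave 1 call of 8, again Aqp2, where 19.8% of 21898 tested genes were called, 9.61% as lower in the AA group, and in 12.5% the AA libraries all lay below the C libraries. The 1 call of 8 in AA vs. M was Aqp7, against 12.8% of 19798 tested genes. All 8 fold changes were negative in M vs. C with a median of −1.11, beside −0.12 over all tested genes. For AA vs. M 7 of 8 were positive with a median of 0.56, beside 0.17 over all tested genes. For AA vs. C 6 of 8 were negative with a median of −0.33, beside 0.091 over all tested genes. These comparisons share libraries, so their values are not independent of each other. The plot of levels by library shows the 9 genes, and the plot of fold changes the 3 comparisons.

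**Figure D1:**
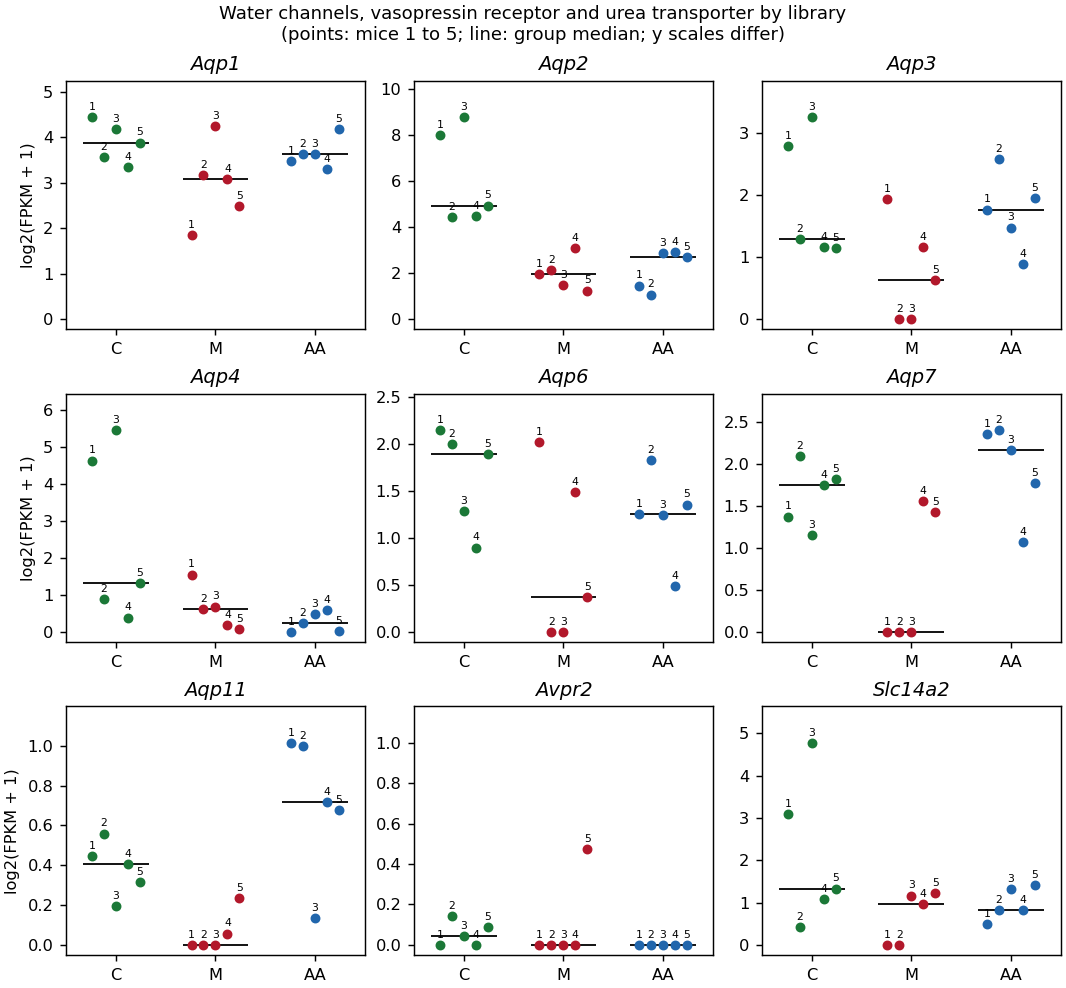
Level of each of the 9 genes in log2(FPKM + 1) on the y axis, by group on the x axis (C, M, AA), with 1 numbered point for each of 5 mice and a line at the group median. The y scales differ. For Aqp2 the C points lie above all others, for Aqp4 and Slc14a2 only C mice 1 and 3 stand far above the rest, and Aqp7 and Aqp11 are at 0 in M mice 1 to 3.

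**Figure D2:**
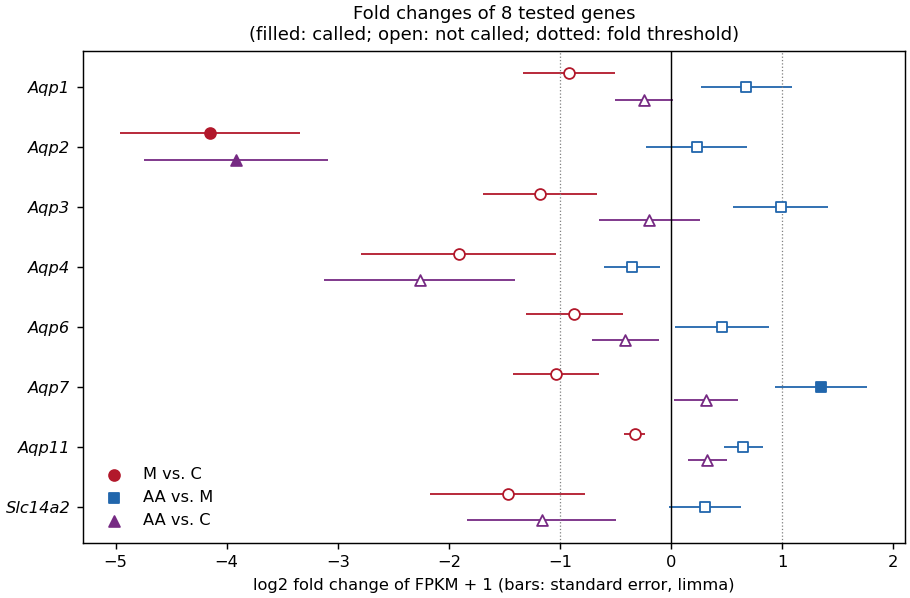
Log2 fold change of FPKM + 1 on the x axis for the 8 tested genes on the y axis, with standard error bars from limma. Filled symbols are called and open ones are not. Aqp2 lies at −4.15 for M vs. C and at −3.92 for AA vs. C, and Aqp7 at 1.35 in AA vs. M.

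Aqp1 (ENSMUSG00000004655, chromosome 6, 55336432 to 55348555), the water channel of the proximal tubule and thin limb, differed far less than Aqp2. Aqp1 FPKM was 20.8, 10.9, 17.3, 9.18 and 13.8 in C mice 1 to 5. It was 2.62, 7.98, 18.1, 7.46 and 4.59 in M mice 1 to 5. It was 10.1, 11.5, 11.4, 8.88 and 17.1 in AA mice 1 to 5. The 3 groups overlapped, with M mouse 3 inside the C range and the other M mice below it. Aqp1 was not called in any comparison, at −0.92 in M vs. C (standard error 0.42, limma adjusted p = 0.294), 0.68 in AA vs. M (standard error 0.41, limma adjusted p = 0.277) and −0.24 in AA vs. C (standard error 0.26, limma adjusted p = 0.486). TPM made Aqp1 a call in M vs. C, at −1.91 (limma adjusted p = 0.0350), and in AA vs. C, at −1.30 (limma adjusted p = 0.0179). Voom on the recovered fragments also called Aqp1 lower in M vs. C, where it did not call Aqp2. With scaling without mitochondrial genes Aqp1 was not called in M vs. C, at −0.95 (limma adjusted p = 0.401). The other proximal tubule markers were much lower in both adenine groups. Over 10 genes their FPKM summed to 3047 to 12625 in C, 85.9 to 540 in M and 162 to 556 in AA, and 7 of 10 were called lower in M vs. C and 8 of 10 in AA vs. C. With M mice 4 and 5 alone 0 of 10 were called in M vs. C, with 8 at an unadjusted p under 0.05.

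The ratio of 2 channels within a library does not depend on how the library was scaled, apart from the added 1. Aqp2 stood above Aqp1 in all 5 C libraries, where the log2 ratio of FPKM + 1 was 3.55, 0.87, 4.58, 1.15 and 1.05. It was 0.11, −1.04, −2.79, −0.0024 and −1.23 in M mice 1 to 5 and −2.01, −2.58, −0.75, −0.38 and −1.48 in AA mice 1 to 5. Aqp1 was thus the higher of the pair in all 5 AA libraries and in M mice 2, 3 and 5, and M mouse 4 had both at nearly the same level. The mean log2 ratio was 2.24 ± 1.71 (SD, n = 5) in C, −0.99 ± 1.17 (SD, n = 5) in M and −1.44 ± 0.90 (SD, n = 5) in AA. The difference of M from C was −3.23 (two-sided exact permutation p = 0.00794, adjusted 0.0119 over 9 tests), and that of AA from C was −3.68 with the same p-values. With 5 against 5 libraries 0.00794 is the smallest p the test can give. AA and M differed by −0.45 (exact permutation p = 0.508, adjusted 0.563).

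The basolateral channel Aqp3 (ENSMUSG00000028435, chromosome 4, 41092722 to 41098183) did not follow Aqp2 in size. Aqp3 FPKM was 5.91, 1.44, 8.57, 1.24 and 1.21 in C mice 1 to 5. It was 2.83, 0, 0, 1.25 and 0.54 in M mice 1 to 5 and 2.41, 4.97, 1.79, 0.85 and 2.89 in AA mice 1 to 5. C mice 1 and 3 were again the highest, and the other C mice lay within the range of the AA group. Aqp3 was not called, at −1.18 in M vs. C (standard error 0.51, limma adjusted p = 0.272), 0.99 in AA vs. M (standard error 0.43, limma adjusted p = 0.125) and −0.19 in AA vs. C (standard error 0.46, limma adjusted p = 0.756). Without M mouse 1 it was called in AA vs. M, at 1.29 (limma adjusted p = 0.0487). The log2 ratio of Aqp3 to Aqp2 was −4.20 ± 1.09 (SD, n = 5) in C, −1.23 ± 0.88 (SD, n = 5) in M and −0.48 ± 1.41 (SD, n = 5) in AA. It was higher than in C by 2.97 in M and by 3.72 in AA (both two-sided exact permutation p = 0.00794, adjusted 0.0119), with no overlap of libraries. AA and M differed by 0.76 (exact permutation p = 0.333, adjusted 0.429). The loss of Aqp2 relative to Aqp3 in M rested partly on the added 1, since with 0.1 in its place the difference was 2.05 (exact permutation p = 0.0794, adjusted 0.119).

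**Figure D3:**
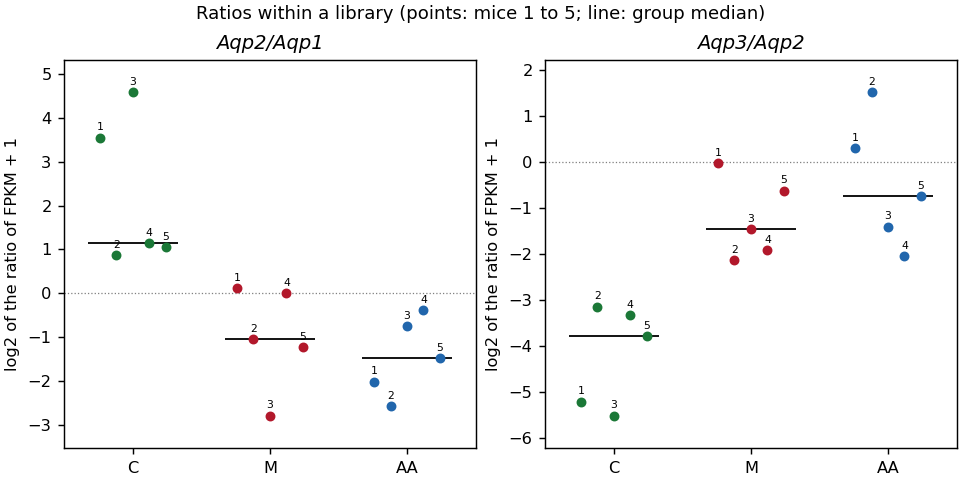
Log2 of the ratio of FPKM + 1 within each library on the y axis, for Aqp2 over Aqp1 and for Aqp3 over Aqp2, by group on the x axis, with 1 numbered point for each of 5 mice and a line at the group median. All C points of the Aqp2 over Aqp1 ratio lie above 0.86 and all AA points below −0.37, and all C points of the Aqp3 over Aqp2 ratio lie below those of both other groups.

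Aqp4 (ENSMUSG00000024411, chromosome 18), the other basolateral channel of the principal cell, was high in C mice 1 and 3 alone. Aqp4 FPKM was 23.7, 0.84, 42.7, 0.31 and 1.49 in C mice 1 to 5. It was 1.93, 0.53, 0.61, 0.13 and 0.050 in M mice 1 to 5 and 0, 0.17, 0.39, 0.52 and 0.024 in AA mice 1 to 5. C mouse 4 lay below M mice 1 to 3 and AA mice 3 and 4, so the groups overlapped. Aqp4 was not called in M vs. C (log2 fold change −1.91, standard error 0.87, limma adjusted p = 0.296) or AA vs. M (−0.35, standard error 0.26, limma adjusted p = 0.373). Its AA vs. C value was −2.26 (standard error 0.86, limma adjusted p = 0.0561). That value lies beside the threshold. Aqp4 was called lower in AA vs. C under 7 of 11 alternative settings, TPM (−3.17, limma adjusted p = 0.0235) among them, and over the 11 its value ran from −6.17 to −0.59. It was also called without C mouse 2, at −2.68 (limma adjusted p = 0.0429), and without C mouse 4, at −2.80 (limma adjusted p = 0.0220). Without C mice 1 and 3 it was −0.24 for M vs. C and −0.59 for AA vs. C.

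The urea transporter gene Slc14a2 (ENSMUSG00000024552, chromosome 18) had the same shape. Slc14a2 FPKM was 7.48, 0.33, 26.3, 1.12 and 1.51 in C mice 1 to 5. It was 0, 0, 1.24, 0.94 and 1.32 in M mice 1 to 5 and 0.41, 0.76, 1.48, 0.77 and 1.65 in AA mice 1 to 5. Outside C mice 1 and 3 all 13 libraries lay between 0 and 1.65. Slc14a2 was not called in M vs. C (−1.47, standard error 0.70, limma adjusted p = 0.315), AA vs. M (0.30, standard error 0.32, limma adjusted p = 0.557) or AA vs. C (−1.17, standard error 0.67, limma adjusted p = 0.188). Without C mice 1 and 3 the AA vs. C value was 0.029.

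C mice 1 and 3 therefore share a set of high genes that reaches beyond the 9. Akr1b3, the aldose reductase that makes the osmolyte sorbitol, stood at FPKM of 18.7 and 68.4 in C mice 1 and 3 and at 0.83 to 4.25 in the other C mice. Slc6a12, the betaine carrier of medullary cells, had 2.14 and 2.37 against 0.17 to 0.67. Elf5, an Ets factor of principal cells, had 3.08 and 6.77 against 0.093 to 0.41. Some other collecting duct genes had another order in the C group. Hsd11b2, which protects the mineralocorticoid receptor from glucocorticoids, was 36.1 in C mouse 2 against 5.62 to 14.1 in the other C mice, and the sodium channel subunit Scnn1b was 15.1 in C mouse 2 against 1.71 to 4.27. C mouse 2 was also the highest in proximal tubule markers, with a sum of 12625 against 3047 and 3295 in C mice 1 and 3. The urothelium markers summed to 8.06 and 41.1 in C mice 1 and 3, to 22.3 in C mouse 4 and to 1.08 and 2.44 in C mice 2 and 5. Whether the pieces of kidney held different zones was not tested. These libraries carry the same label, and the genes of this paragraph were picked from the lists for their pattern. Genes of 1 list also differed from each other. Fxyd4, a principal cell gene of the same list as Hsd11b2 and Scnn1b, was high in C mice 1 and 3 as Akr1b3 was. It had 64.6 and 37.2 there against 5.30 to 12.1 in the other C mice. Slc6a6, of the same tonicity list as Akr1b3 and Slc6a12, went the other way, with 4.02 and 2.84 against 4.79 to 6.10.

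**Figure D4:**
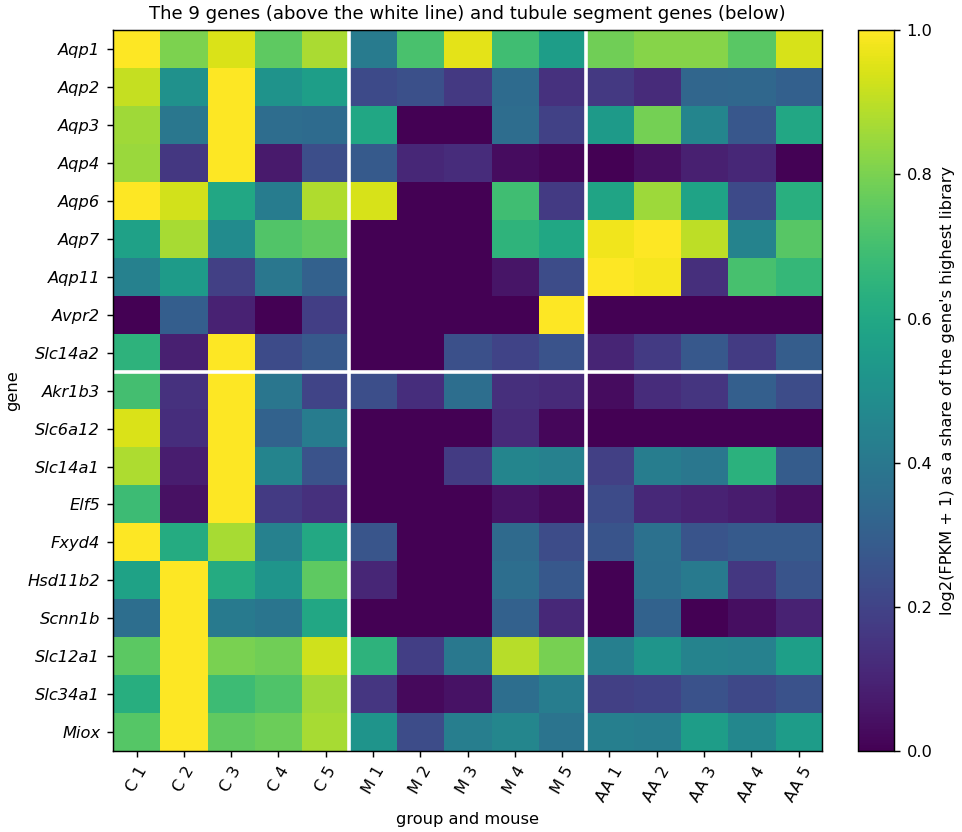
Level of 19 genes (y axis) in 15 libraries (x axis, group and mouse), as log2(FPKM + 1) divided by the gene's value in its highest library, from 0 in dark to 1 in bright. The 9 genes lie above the white line, and genes of the medulla, collecting duct, thick ascending limb and proximal tubule picked from the lists after their values were seen lie below it. Aqp2, Aqp4, Slc14a2, Akr1b3, Slc6a12 and Elf5 are brightest in C mice 1 and 3, and Hsd11b2, Scnn1b, Slc34a1 and Miox in C mouse 2.

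Aqp7 (ENSMUSG00000028427, chromosome 4, 41033074 to 41048139), the aquaglyceroporin, was the gene called in AA vs. M, as higher in the AA group. Aqp7 FPKM was 1.59, 3.25, 1.22, 2.36 and 2.53 in C mice 1 to 5. It was 0, 0, 0, 1.94 and 1.69 in M mice 1 to 5 and 4.10, 4.27, 3.46, 1.10 and 2.42 in AA mice 1 to 5. The difference lay between the AA group and M mice 1 to 3, since M mice 4 and 5 were inside the AA and the C ranges. In AA vs. M it rose by 1.35 on the log2 scale (standard error 0.41, limma adjusted p = 0.0367), and 11.7% of all tested genes were called higher in that comparison. With M mice 4 and 5 alone it was 0.46 (limma adjusted p = 0.478). The call was also lost when any 1 of M mice 1 to 3 or AA mice 1, 2, 3 and 5 was left out, with adjusted p from 0.0503 to 0.0905. Aqp7 was not called in M vs. C (−1.04, standard error 0.39, limma adjusted p = 0.210) or in AA vs. C (0.31, standard error 0.29, limma adjusted p = 0.407). In M vs. C voom on the recovered fragments did call it lower (−5.32, adjusted p = 0.0291), while with M mice 4 and 5 alone it was −0.14. Fat cells also express Aqp7. The 6 adipocyte markers summed to 0 to 2.64 in the M group, 5.38 to 34.0 in the AA group and 0.65 to 88.4 in the C group, with Lep at 0 in the AA group and Adipoq at 0 in 4 of 5 M and 3 of 5 AA libraries, and Cfd and Retn of these were called higher in AA vs. M. With TPM, or with M mice 4 and 5 alone, 0 of the 4 tested adipocyte genes were called by limma in AA vs. M, with 3 and 1 at an unadjusted p under 0.05. Their part in the Aqp7 value was not tested. Among its 31-base words, 6.23% occur in transcripts of other genes.

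Aqp11 (ENSMUSG00000042797, chromosome 7, 97724006 to 97738289), the channel of the endoplasmic reticulum, had its lowest values in the M group, as Aqp7 did. Aqp11 FPKM was 0.36, 0.47, 0.14, 0.32 and 0.24 in C mice 1 to 5. It was 0, 0, 0, 0.040 and 0.18 in M mice 1 to 5 and 1.02, 1.00, 0.099, 0.64 and 0.60 in AA mice 1 to 5. AA mice 1, 2, 4 and 5 were above every C and M library, and AA mouse 3 was inside the M range. The AA vs. M value was 0.65 on the log2 scale (standard error 0.18, limma adjusted p = 0.0215), under the fold threshold, so Aqp11 was not called. It was −0.33 in M vs. C (standard error 0.095, limma adjusted p = 0.115) and 0.33 in AA vs. C (standard error 0.18, limma adjusted p = 0.165). With 0.1 in place of the added 1, Aqp11 was called in AA vs. M, at 2.34 (limma adjusted p = 0.0199). It was called there too with scaling without mitochondrial genes (2.26, limma adjusted p = 0.0317) and with voom (5.15, adjusted p = 0.0273), and voom also called it lower in M vs. C (−5.22, adjusted p = 0.0207).

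Aqp6 (ENSMUSG00000043144, chromosome 15, 99601400 to 99605477), the vesicle channel of intercalated cells, lies next to Aqp2 on the chromosome with Aqp5 between them. Aqp6 FPKM was 3.44, 3.01, 1.45, 0.87 and 2.71 in C mice 1 to 5. It was 3.06, 0, 0, 1.82 and 0.29 in M mice 1 to 5 and 1.39, 2.56, 1.38, 0.40 and 1.56 in AA mice 1 to 5. The groups overlapped, and C mouse 3, the highest in Aqp2, was not high in Aqp6. Aqp6 was not called, at −0.87 in M vs. C (standard error 0.44, limma adjusted p = 0.340), 0.46 in AA vs. M (standard error 0.42, limma adjusted p = 0.490) and −0.41 in AA vs. C (standard error 0.30, limma adjusted p = 0.304). The 6 intercalated cell markers summed to 17.1 to 72.9 in C, 8.40 to 27.4 in M and 11.8 to 24.1 in AA.

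The vasopressin receptor gene Avpr2 (ENSMUSG00000031390, chromosome X, 73892102 to 73895502) was at or near 0 throughout. Avpr2 FPKM was 0, 0.10, 0.031, 0 and 0.062 in C mice 1 to 5, 0.39 in M mouse 5 and 0 in the other M and all AA libraries. That is 35 fragments in M mouse 5 and at most 12 in any other library. A count of 0 allows up to 3 fragments, which is an FPKM of 0.0307 to 0.115 in the libraries listed at 0, so levels like those of C mice 2 and 5 could be missed in some of them. Of the 2886 exonic bases of Avpr2, 2347 overlap exons of Arhgap4 on the opposite strand, and the strand setting of the counting is not given in the sources used here, so reads of the pair cannot be told apart. The floor of 3 fragments does not take this overlap into account, so low values here need not mean little Avpr2 RNA. The ratio of Avpr2 to Aqp2 was higher than in C in both M (by 4.19) and AA (by 3.86), each with an exact permutation p of 0.00794 (adjusted 0.0119). With Avpr2 near 0 this ratio is the inverse of Aqp2 and adds nothing about the receptor. AA and M differed in it by −0.33 (exact permutation p = 0.563, adjusted 0.563).

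In the C group the order of the median levels was Aqp2 (FPKM 29.6), Aqp1 (13.8), Aqp6 (2.71), Aqp7 (2.36), Slc14a2 (1.51), Aqp4 (1.49), Aqp3 (1.44), Aqp11 (0.32) and Avpr2 (0.031). From Aqp6 to Aqp3 the ranges overlapped between neighbours. Those of Aqp2 (from 20.6) and Aqp1 (up to 20.8) also overlapped slightly, though Aqp2 was the higher within each C library. In the M group Aqp1 led (7.46), before Aqp2 (2.92), and in the AA group Aqp1 (11.4) was again first and Aqp2 (5.51) second. The remaining aquaporins were rare. Aqp5, Aqp8, Aqp9, Aqp12 and Mip had a summed FPKM of at most 1.42 in any library, Aqp12 was at 0 in all 15, and 0 were called in any comparison by limma, although 1 of the 2 tested in M vs. C and the 1 tested in each other comparison had an unadjusted p under 0.05. With voom on the recovered fragments 1 was called lower in M vs. C and 1 higher in AA vs. C. Aqp9, the 1 tested in AA vs. C, had a value of 0.63 there (limma adjusted p = 0.00829), under the fold threshold. Aqp9 had the highest mean over all libraries through the AA group, at 0.30 to 1.28, while in C it was at 0 to 0.26 and Aqp5 at 0 to 0.74.

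Among 14 genes of vasopressin and cAMP signalling, limma called 0 in M vs. C, with 2 at an unadjusted p under 0.05 and 1 called lower by voom, and 2 genes had calls elsewhere. The summed FPKM of the list was 32.8 to 37.7 in C, 32.6 to 39.7 in M and 32.7 to 41.7 in AA. Adcy6, the adenylyl cyclase that makes cAMP in the principal cell, fell in AA vs. C (−1.82, standard error 0.27, limma adjusted p = 0.000659), from FPKM of 4.04 to 12.5 in C to 0.88 to 1.90 in AA. Pde4d, a phosphodiesterase that breaks cAMP down, rose in AA vs. M (1.36, standard error 0.36, limma adjusted p = 0.0206) and was at 0 in M mice 1 to 3. With M mice 4 and 5 alone, or with centring on library medians, 0 genes of the list rose in AA vs. M and 1 fell, and with TPM 0 were called, with 1 at an unadjusted p under 0.05. In AA vs. C 2 were called lower with TPM and 3 with voom, beside 5923 and 6986 of all 21898 tested genes. The best expressed gene of the list, the kinase subunit Prkar1a, had FPKM of 8.26 to 12.8 in C, 12.0 to 26.9 in M and 12.2 to 15.5 in AA.

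Of 8 transcription factors of the collecting duct, limma called 0 in M vs. C, although all 8 fold changes were negative with a median of −1.14, and 6 had an unadjusted p under 0.05. With TPM 2 and with voom 5 of the 8 were called lower. Against C, 3 of 8 were called lower in AA, namely Pax8 (−2.01, limma adjusted p = 0.000543), Gata2 (−1.40, limma adjusted p = 0.00194) and Elf3 (−1.11, limma adjusted p = 0.0498). Pax8, the best expressed of them in C, is also active in other tubule segments. Grhl2, which shapes the tight epithelium of the collecting duct, rose in AA vs. M (1.09, limma adjusted p = 0.0290), from 0 to 1.32 in M to 1.46 to 2.41 in AA. With TPM, centring or voom 0 of 8 were called in AA vs. M, with 0, 2 and 4 at an unadjusted p under 0.05, and with M mice 4 and 5 alone 0 of 8 rose and 2 fell. In AA vs. C 6 of 8 were called lower with TPM and 6 with voom. Over all tested genes TPM and voom called 1578 and 1785 of 21153 lower in M vs. C. The 2 called 5923 and 6986 of 21898 lower in AA vs. C.

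Some of the sodium entry genes of the principal cell were lower in each adenine group than in C. In M vs. C 2 of 8 were called lower, Hsd11b2 (−2.84, limma adjusted p = 0.0233) and Fxyd4 (−3.24, limma adjusted p = 0.0287), a regulator of the sodium pump. TPM and voom each called 5 of 8 lower there, beside 1578 and 1785 of all 21153 tested genes, and the fit without C mice 1 and 3 called 1. The AA vs. C fit called 5 of 8 lower, Fxyd4 (−2.50, limma adjusted p = 0.00413), Hsd11b2 (−2.36, limma adjusted p = 0.00426), the channel subunits Scnn1a (−1.62, limma adjusted p = 0.00725) and Scnn1b (−1.85, limma adjusted p = 0.00917), and the kinase gene Sgk1 (−1.10, limma adjusted p = 0.0325). The AA vs. M fit called 0 of 8, with 0 at an unadjusted p under 0.05 and 0 called by voom. With M mice 4 and 5 alone 0 of 8 were called in M vs. C, with 3 at an unadjusted p under 0.05. Fxyd4 FPKM was 5.30 to 64.6 in C, 0 to 3.28 in M and 1.95 to 3.80 in AA, with no overlap of C and either other group, as for Aqp2.

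The thick ascending limb separates salt from water and so builds the gradient that Aqp2 uses. In M vs. C 1 of its 7 tested genes was called lower, Bsnd (−2.05, limma adjusted p = 0.0462), whose product barttin is needed for salt uptake there. Centred on library medians, or without C mice 1 and 3, 0 of 7 were called, with 4 and 2 at an unadjusted p under 0.05. The AA vs. C fit called 2 of 8 lower, the sodium-potassium-chloride carrier Slc12a1 (−2.27, limma adjusted p = 0.000527) and Bsnd (−2.66, limma adjusted p = 0.000974), and TPM and voom each called 5 of 8. In M vs. C 2 of 7 were called lower with TPM and 3 with voom. Over all tested genes TPM and voom called 1578 and 1785 of 21153 lower in M vs. C. For AA vs. C it was 5923 and 6986 of 21898. The AA vs. M fit called 0 of 7, with 0 at an unadjusted p under 0.05 and 0 called by voom, but 1 fell with centring and 1 with M mice 4 and 5 alone. With those 2 mice 0 of 7 were called in M vs. C, where 1 had an unadjusted p under 0.05. Slc12a1 FPKM was 22.9 to 68.4 in C and 5.29 to 9.91 in AA, and in the M group 43.0 and 28.3 in M mice 4 and 5 against 1.20 to 14.5 in M mice 1 to 3. Umod, the uromodulin gene of the same segment, was not called in any comparison, with FPKM of 15.4 to 50.4 in C, 6.30 to 66.7 in M and 19.4 to 52.8 in AA.

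Of 8 genes of urea transport and the response to tonicity, limma called 0 in each comparison, with 1 at an unadjusted p under 0.05 in each comparison that holds the M group and 2 in AA vs. C. In AA vs. C Slc6a12 had a limma adjusted p of 0.0138, with a value of −0.98 under the fold threshold. Its FPKM was 0.17 to 2.37 in C, 0 to 0.16 in M and 0 in every AA library. Other treatments of the values gave calls in AA vs. C, 4 lower with TPM and 5 lower with voom, and in M vs. C 1 lower with either. Over all tested genes TPM and voom called 5923 and 6986 of 21898 lower in AA vs. C. For M vs. C it was 1578 and 1785 of 21153. Centring gave 1 lower in AA vs. C and 1 lower in AA vs. M. Slc14a1, the urea transporter of the vasa recta and red cells, stood at FPKM of 3.80, 0.16, 4.97, 1.24 and 0.58 in C mice 1 to 5, 0 to 1.26 in M and 0.40 to 2.13 in AA. Nfat5, the factor that switches on osmolyte genes, had 1.32 to 3.52 in C, 1.45 to 3.66 in M and 1.66 to 2.47 in AA. Akr1b3, whose mean over all libraries was the highest of the list through C mice 1 and 3, had 0.65 to 3.65 in M and 0.15 to 2.64 in AA, beside the C values given above.

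Markers of other cell types are given as whole lists, and their part in the values above was not tested. The 6 macrophage markers summed to 16.5 to 97.6 in C, 132 to 390 in M and 93.0 to 141 in AA, with 2 called higher in M vs. C, 1 lower in AA vs. M, and 3 higher and 1 lower in AA vs. C. With M mice 4 and 5 alone 0 of the 6 were called in M vs. C, with 4 at an unadjusted p under 0.05, and 0 in AA vs. M, with 2. Endothelium markers (6 genes) summed to 20.1 to 35.9, 14.2 to 27.8 and 9.15 to 17.1 in C, M and AA, and those of red blood cells (5 genes) to 30.4 to 212, 13.3 to 31.2 and 7.51 to 41.0. In each of these lists 2 genes were called lower in AA vs. C. For M vs. C limma called 0 in both, with 0 endothelium and 3 red blood cell genes at an unadjusted p under 0.05 and 0 and 2 called by voom. In AA vs. M it also called 0 in both, with 0 and 1 at an unadjusted p under 0.05 and 0 called by voom, but 2 endothelium genes fell with M mice 4 and 5 alone. The 6 urothelium markers summed to at most 4.37 in M and 6.04 in AA, and limma called 0 of them in any comparison. At an unadjusted p under 0.05 there were 2 in M vs. C, 2 in AA vs. M and 0 in AA vs. C, and voom called 1 in M vs. C, 0 in AA vs. M and 1 in AA vs. C.

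Over the 15 libraries, and among 2069 genes above 0 in all of them with a mean FPKM of at least 5, the genes whose log2(FPKM + 1) was most like that of Aqp2 were Mal (Pearson r = 0.91), Gstm2 (0.90), Ppp1r11 (0.87), Akr1b3 (0.84) and Cryab (0.84). Cryab, a small heat shock protein abundant in the inner medulla, stood at FPKM of 235 and 538 in C mice 1 and 3 and at 9.82 to 36.1 in the other 13 libraries. Mal, a membrane sorting protein, had 58.2 and 99.4 in C mice 1 and 3 and 4.07 to 13.8 elsewhere. Those most like Aqp1 were Mlec (0.85), Surf4 (0.78), Reep5 (0.73), Smagp (0.73) and Scd2 (0.67). Library quality and the high pair of C mice are shared by all points, so these values are a description.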

How the data were processed

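Kidney RNA of 15 mice (C, M and AA, 5 each) was enriched for poly-A, sequenced in paired reads and, per the labels, trimmed with fastp, aligned to mm10 with HISAT2 2.0.5 and counted with featureCounts 1.5.0-p3. The authors deposited 1 FPKM value per gene and library, and their own count-based test was not repeated. Whether counting used strand is not given in the sources used here. Symbols, positions and lengths came from GENCODE M21 (GRCm38), which lacked 37 of 54532 identifiers. Fragments were recovered from FPKM steps, and 97.6 to 98.9% of values of 1 to 20 fragments fell within 0.02 of a whole number. Floors of 3 fragments cover counting error only.

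Groups came from the labels. Each comparison used limma 3.58.1 in R 4.3.3 (intensity trend) on log2(FPKM + 1) of 10 libraries, with Benjamini-Hochberg adjustment over all tested genes. Ratios within a library were tested with two-sided exact permutation tests of 252 splits, adjusted over 9 tests. The fit was tested on simulated data. Python 3.11.15 was used for the rest.

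Named were all 9 genes, the called genes of each pathway list (at most 4 per list and comparison by adjusted p) or its best expressed gene, and the 5 genes most like Aqp1 and Aqp2. Sgk1, Umod, Slc14a1, Nfat5, Slc6a12, Slc6a6 and Elf5 were named after their values were seen. A few genes of the lists are not reported here and were left out of the counts. The genes and lists were chosen with earlier results of these data known. Alternatives changed the pseudocount, the filter, the scaling, the trend, the libraries fitted, the block and the test (voom on recovered fragments), and left out each library in turn. Leaving out C mice 1 and 3, also together with M mice 1 to 3, was chosen after seeing the data.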

Additional observations from a re-analysis of the deposited data

Results flagged for a closer look

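In the M group 1 library stood apart from the other 4 by Dixon's ratio (critical value 0.71) for 2 of the 9 genes, M mouse 5 in both. For Aqp11 its FPKM of 0.177 was the highest of the group, and the gap to the next library was 0.760 of the group's range on the log2(FPKM + 1) scale. For Avpr2 its FPKM of 0.389 was the one value above 0 in the group, so the ratio was 1. M mice 1 to 3 were at 0 for both genes. Of 26 groups examined 2 were flagged. The usual rate of about 1 in 20 groups is for normal values, and both flagged groups hold values tied at 0. It therefore cannot be set against these 2 flags.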

How the results depend on the processing

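The fall of Aqp2 kept its direction under every alternative run, from −5.39 to −2.46 in M vs. C and from −5.31 to −2.41 in AA vs. C. It stayed called in AA vs. C under all of them, but in M vs. C it was not called with genes kept on any value above 0 (adjusted p = 0.0895), without the intensity trend (0.0590), with voom (0.115), with M mice 4 and 5 alone (0.242) or without C mice 1 and 3 and M mice 1 to 3 (0.0636). Aqp7 in AA vs. M was not called with the any-value filter, TPM, scaling without mitochondrial genes (3.02), centring, the block or M mice 4 and 5 alone.

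Members called in M vs. C (1) became 0 with the any-value filter, no trend, M mice 4 and 5 alone, or C mice 1 and 3 and M mice 1 to 3 left out, 2 with TPM and 3 with voom (Aqp1, Aqp7 and Aqp11), and 0 to 1 with each library left out. In AA vs. M (1) they became 2 with pseudocount 0.1 or voom and 0 with the any-value filter, TPM, centring, the block or M mice 4 and 5 alone, and 0 to 1 with each library left out. In AA vs. C (1) they became 4 with TPM (Aqp1, Aqp2, Aqp4 and Aqp6), 2 with pseudocount 0.1, mean FPKM of at least 1, scaling without mitochondrial genes, centring, all 15 libraries, the block or voom, and 1 to 2 with each library left out.

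All genes called in M vs. C (291, 19.6% higher) became 33 with the any-value filter, 448 with mean FPKM of at least 1, 1609 with TPM (1.93% higher), 786 with all 15 libraries, 152 with the block, 1818 with voom, 0 with M mice 4 and 5 alone (2489 at an unadjusted p under 0.05), 177 without C mice 1 and 3 and M mice 1 to 3, and 4 to 954 with each library left out (4 without C mouse 5, 18 without M mouse 3, 36 without M mouse 2, 75 without C mouse 2, 85 without M mouse 1, 157 without C mouse 4 and 954 without M mouse 5). In AA vs. M (2533, 91.6% higher) they became 422 with TPM, 1679 with voom and 1656 with M mice 4 and 5 alone (27.8% higher), and 1805 to 2897 with each library left out, and centring left 43.1% higher. In AA vs. C (4346, 51.6% higher) they became 7474 with pseudocount 0.1, 6785 with TPM (12.7% higher), 7190 with scaling without mitochondrial genes and 8569 with voom (18.5% higher), and 3463 to 4770 with each library left out. With centring the share higher was 38.9% for M vs. C and 40.1% for the AA vs. C calls. The median of all genes was moved from −0.12 to −0.58 by TPM and 0.24 by centring in M vs. C, from 0.17 to −0.35 by centring in AA vs. M, and from 0.091 to −0.39 by TPM in AA vs. C.

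The ratio of Aqp3 to Aqp2 in M vs. C was 2.05 with pseudocount 0.1 (adjusted exact permutation p = 0.119). With M mice 4 and 5 alone it was 2.93 (0.107), that of Aqp2 to Aqp1 −2.86 (0.143) and that of Avpr2 to Aqp2 4.14 (0.143), where 2 against 5 libraries cannot give a p under 0.0476 before adjustment.

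Of 515 alternative values of single members, 456 kept direction and call, 22 lost the call, 20 gained it and 17 changed sign, none of these a called value. Those were Aqp11 (0.036) in M vs. C and Aqp2 (−0.28), Aqp6 (−0.055) and Slc14a2 (−0.21) in AA vs. M with centring, Aqp4 (0.14) and Slc14a2 (−0.11) in AA vs. M with M mice 4 and 5 alone, Aqp7 (−0.55) and Aqp11 (−0.0029) in AA vs. C with TPM and Aqp7 (−0.51) and Aqp11 (−0.067) with voom, Aqp1 (0.046), Aqp3 (0.54) and Slc14a2 (0.029) in AA vs. C without C mice 1 and 3, and Slc14a2 (0.14) in M vs. C without C mice 1 and 3 and M mice 1 to 3. Aqp3 in AA vs. C ranged from −0.41 to 0.14 with each library left out and was positive without C mouse 1, C mouse 3 or AA mouse 4. The causes were not tested.

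Same-numbered libraries of 2 groups correlated from −0.227 to 0.174 in their deviations from the group means. Libraries with different numbers were not compared, so this range cannot decide whether mouse numbers pair the libraries. With the replicate block 152 genes were called in M vs. C, Aqp7 was not called in AA vs. M (adjusted p = 0.0784) and Aqp4 was called in AA vs. C. Avpr2 had the fewest fragments, at 0 to 35 in every library, with the overlap with Arhgap4 given above. Aqp4 had 10 to 140 fragments in M and 0 to 66 in AA, and Aqp11 0 to 52 in M and 14 to 131 in AA. No Aqp7 fragments were seen in M mice 1 to 3. The same held for Aqp3 and Aqp6 in M mice 2 and 3, and for Slc14a2 in M mice 1 and 2. Aqp2 had 34 to 310 fragments in M and 14 to 193 in AA.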
